A study of Homo sapiens with 16 samples.

Results

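The genes described here are 45 genes of autophagy and the lysosome, taken by gene symbol from the 63653 genes in the deposited expression files of HCT116, a cell line established from a human colon cancer. All 45 were found. RNA was sequenced from 4 groups of 2 libraries each, and every library was sequenced in 2 runs, which were averaged and counted once. In the inhibitor group the cells were exposed for 72 h to 0.5 µM BIX 01294 trihydrochloride hydrate, a small molecule that inhibits the histone methyltransferase G9a (gene symbol EHMT2). In the siRNA group they were transfected by lipid with 10 nM of a small interfering RNA against G9a and kept for 72 h. Each treatment had a control group of its own, called inhibitor control and siRNA control below, and the sources used here do not say what the control cells were given. All cells were of the same line, and the labels name no change to the genome. The series' design text speaks of biological replicates without naming separate cultures, and p-values therefore reflect the spread among these libraries alone, part or all of which may be technical.

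Autophagy encloses cytoplasm in a double membrane, the autophagosome, which fuses with the lysosome, where acid hydrolases digest the contents. The ULK kinases and the BECN1 lipid kinase complex start the membrane, ATG9A vesicles and WIPI proteins help it form, a conjugation system built of ATG proteins attaches LC3 and GABARAP proteins to its lipid, and receptors such as SQSTM1 tie cargo to them. The transcription factors TFEB and TFE3 activate many lysosomal and autophagy genes through a short E-box element. G9a has been reported to repress MAP1LC3B and WIPI1, and BIX 01294 has been described as an inducer of autophagy in other cells.

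Levels are FPKM (fragments per kilobase of transcript, relative to the mapped fragments of the library) after scaling the libraries to each other. They are listed as replicate 1 and replicate 2 of a group. Differences are log2 fold changes ± standard error, computed on log2(FPKM + 1), a scale on which changes of low genes come out too small. "Called" means an adjusted p under 0.05 in a limma fit over 12846 genes. EHMT2 was at 15.9 and 17.8 FPKM in the siRNA controls and at 4.68 and 4.54 in the siRNA libraries (log2 -1.67 ± 0.09, adjusted p = 0.000268), and at 24.7 and 21.0 in the inhibitor controls against 19.7 and 18.9 with inhibitor (-0.23 ± 0.09, adjusted p = 0.0827). EHMT1, which encodes the related enzyme GLP, had 25.5 and 24.0 FPKM in the inhibitor controls, 10.9 and 12.4 with inhibitor, 12.2 and 15.8 in the siRNA controls and 9.08 and 10.1 with siRNA. The epithelial markers EPCAM, KRT8, KRT18 and KRT19 lay between 73.4 and 257 FPKM in all libraries, CLDN4 between 7.54 and 13.3, and CDH1, which encodes E-cadherin, between 0.623 and 2.02. The summed level of these 6 was 756 to 764 in the inhibitor controls, 696 to 715 with inhibitor, 636 to 639 in the siRNA controls and 639 to 655 with siRNA. Of the 6, 4 were called in inhibitor against its control (1 higher, 3 lower), where 36.5% of all genes were called. Between the control groups 5 were called (1 higher, 4 lower), where 38.3% of all genes were. The part of this in the members' results was not tested. Across all genes tested, the 2 inhibitor controls correlated with each other at r = 0.993 and with the other 6 libraries at 0.957 to 0.974, while those 6 correlated among themselves at 0.985 to 0.995. The ribosomal RNA RNA28S5 had 210.2 and 40.8 FPKM in those controls, against 1045 to 18918 elsewhere. The summed level of 8 fibroblast markers was 15.3 to 15.5 in the inhibitor controls, 19.8 to 21.0 with inhibitor, 17.7 to 18.5 in the siRNA controls and 17.5 to 18.3 with siRNA. Most of it was VIM (11.7 to 18.5). COL1A1 lay between 0.729 and 2.07 and PDGFRB between 0.385 and 1.83, THY1 and COL3A1 did not exceed 0.309, COL1A2 and DCN did not exceed 0.0434, and LUM was at 0 in all libraries.

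The members spanned a wide range of levels. SQSTM1, the cargo receptor also known as p62, had the highest mean over the 8 libraries, 120 FPKM, followed by PSAP, the precursor of the saposins that help degrade sphingolipids, at 73.2, GABARAP at 59.6, ATG12 at 56.2 and the lysosomal membrane glycoprotein LAMP1 at 47.1. At the low end MAP1LC3A averaged 0.102 and the autophagy-starting kinase ULK1 0.719. These 2 fell below the minimum mean of 1 FPKM and were not tested, which left 43 members. In a fit without that minimum neither was called in any of the 6 comparisons. TFEB at 1.24, ULK2 at 1.77 and TFE3 at 2.01 were the lowest members tested. The deposited files hold no read counts. If the width of the deposited confidence intervals reflects counting error alone, SQSTM1 rested on between 1951 and 4631 fragments per library, MAP1LC3B on 20.8 to 590 and TFEB on 0.914 to 17.3, so some low members rested on few fragments.

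**Figure D1:**
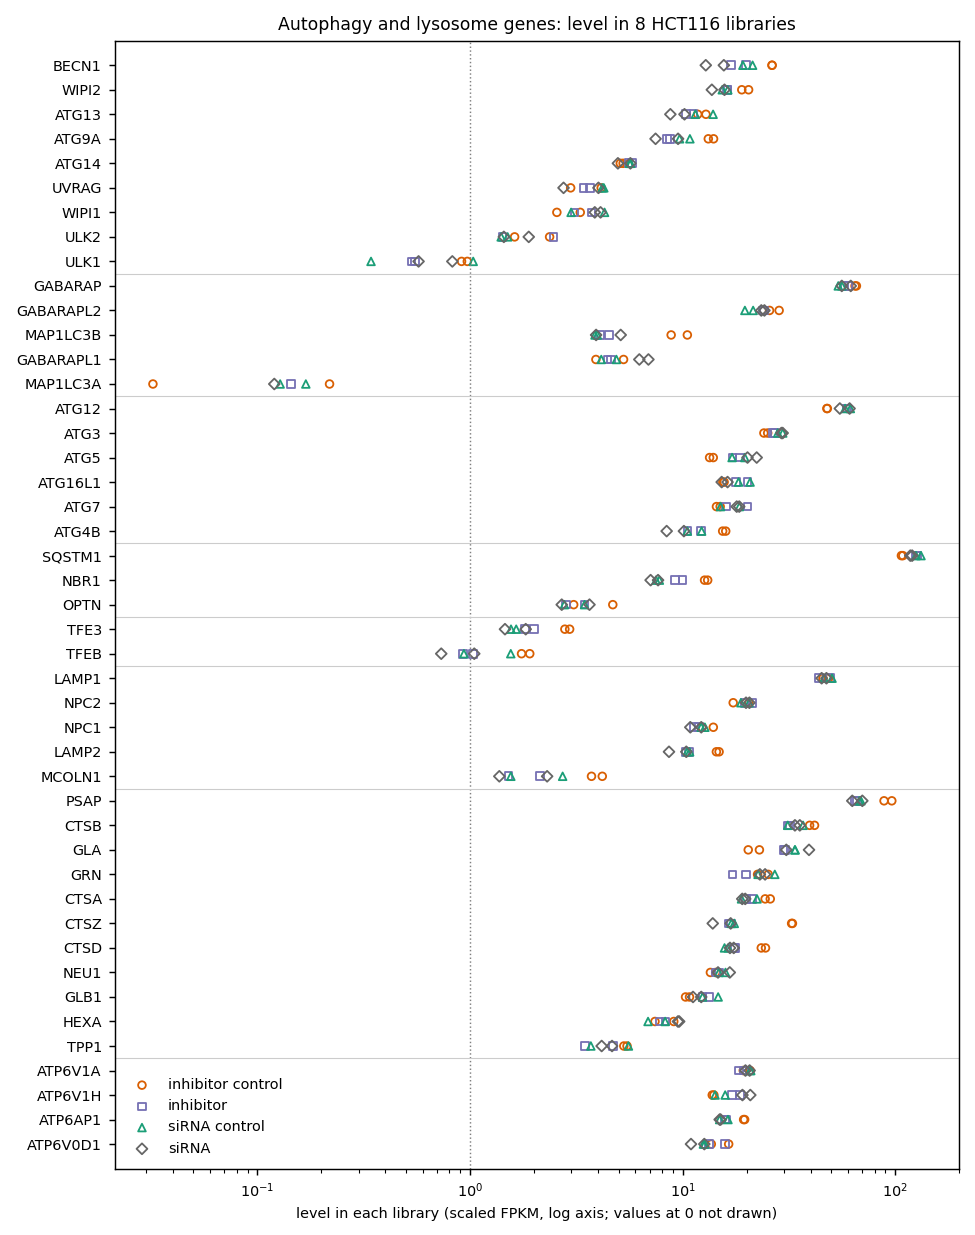
Scaled FPKM of the 45 members in each of the 8 libraries, 1 point per library on a log axis, grouped by role and coloured by group; values of 0 are not drawn. For genes such as MAP1LC3B, CTSZ and MCOLN1 the 2 inhibitor controls lie to the right of the other 6 libraries.

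Since TFEB and TFE3 bind an E-box with the core CACGTG, the promoters of the members were searched for it. RefSeq windows on GRCh38.p14, from 250 bases before to 50 after the annotated start, were found for 37 members. MAP1LC3A, UVRAG, LAMP2, CTSB, HEXA, PSAP, ATP6V1H and ATP6V1A had no entry. CACGTG, which reads the same on both strands, occurred in 8 of the 37 windows (21.6%) and in 7.43% of all 27305 windows. The longer TCACGTGA, which contains it and is also a palindrome, occurred in 5 (13.5%, against 1.04% of all): ATG3, LAMP1, CTSA, ATP6V0D1 and MCOLN1. The 8 members were ATG3, ATG14, LAMP1, CTSA, CTSD, NEU1, ATP6V0D1 and MCOLN1. Windows are given for CTSA, CTSD and MCOLN1, which were called in the comparison of inhibitor with its own control, and for LAMP1, which holds 6 copies and was not called. They are printed in the direction of the gene, with CACGTG in capitals, and end 15 bases after the start; the window begins 80 bases before the start, or 200 for LAMP1.
LAMP1, chr13:113297039-113297253, plus strand: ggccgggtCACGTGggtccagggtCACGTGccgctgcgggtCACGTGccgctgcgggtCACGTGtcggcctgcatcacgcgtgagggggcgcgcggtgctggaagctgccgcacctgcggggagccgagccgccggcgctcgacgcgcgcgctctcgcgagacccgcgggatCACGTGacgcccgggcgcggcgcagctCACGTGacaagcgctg
CTSA, chr20:45891255-45891349, plus strand: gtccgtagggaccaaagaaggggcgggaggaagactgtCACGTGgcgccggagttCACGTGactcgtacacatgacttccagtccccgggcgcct
CTSD, chr11:1763913-1764007, minus strand: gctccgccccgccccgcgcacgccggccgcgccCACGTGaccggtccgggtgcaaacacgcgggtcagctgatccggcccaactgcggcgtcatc
MCOLN1, chr19:7522544-7522638, plus strand: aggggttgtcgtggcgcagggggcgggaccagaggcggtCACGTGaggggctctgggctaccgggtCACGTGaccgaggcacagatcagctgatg
Counted from the start, with -1 the base before it, CACGTG began at -42 and -25 in CTSA, at -47 in CTSD, at -41 and -14 in MCOLN1, and at -192, -176, -159, -142, -28 and -1 in LAMP1. In the other 4 members it began at -18 and 6 (ATG3), -21 (ATG14), -126 (NEU1) and -59 (ATP6V0D1). None of these 4 was called in inhibitor against its own control, where 36.5% of all genes were called. A match says only that these letters are present.

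Of the 43 members tested, 23 were called in the inhibitor libraries against their own controls, 6 higher and 17 lower. Over all genes tested 36.5% were called, 17.7% higher and 18.7% lower. The members' median log2 difference was -0.16, and that of all genes was 0.01. With the FPKM left as deposited, unscaled, 15 members were called, 1 higher and 14 lower, where 24.2% of all genes were, 1083 higher and 2029 lower. In RNA from whole cultures, fewer cells of a type and less RNA per cell cannot be told apart. The libraries these members were compared with are those described above as standing apart, and the part of that difference in the calls was not tested. Fewer members were called when either inhibitor control or either inhibitor library was left out, in fits that leave 1 library in a group. For each gene given by library, the values in the siRNA controls stand beside the others.

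The cargo receptors deliver ubiquitinated material to the autophagosome. SQSTM1 (chr5:179233388-179265078, hg19) had 109 and 107 FPKM in the inhibitor controls, 125 and 127 with inhibitor, 125 and 132 in the siRNA controls and 118 and 120 with siRNA. The inhibitor controls were the lowest of the 8 libraries, and the inhibitor libraries lay at the low end of the siRNA controls. SQSTM1 rose by a log2 of 0.22 ± 0.05 against the inhibitor controls (adjusted p = 0.00645), a call lost with the FPKM as deposited (adjusted p = 0.161, over alternatives 0.00543 to 0.161). Against the siRNA controls its difference was -0.03 ± 0.05 (adjusted p = 0.831). NBR1, a second ubiquitin-binding receptor, fell by 0.39 against the inhibitor controls (adjusted p = 0.00606), or by 0.34 without inhibitor replicate 1, where the call was lost (adjusted p = 0.0523). OPTN, a receptor for damaged mitochondria and bacteria, was at -0.22 ± 0.19 (adjusted p = 0.387). SQSTM1 overlaps MGAT4B and C5orf45, by up to 3643 bases, so its reads may be divided among these genes.

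The ATG8 proteins are the small ubiquitin-like proteins that coat the autophagosome. MAP1LC3B (chr16:87417601-87438385), which encodes the common autophagosome marker LC3B, had 10.5 and 8.84 FPKM in the inhibitor controls, 4.09 and 4.51 with inhibitor, 3.88 and 3.97 in the siRNA controls and 3.92 and 5.12 with siRNA. The 2 inhibitor controls were high and the other 6 libraries lay together below them. MAP1LC3B thus fell by 1.01 ± 0.13 in inhibitor against its own control (adjusted p = 0.000569), the largest log2 decrease among the members, and its difference from the siRNA controls was 0.11 ± 0.13 (adjusted p = 0.782). The gene overlaps FBXO31 by 8148 bases, and it is not given whether counting used the strand. FBXO31 had 16.7 and 15.5 FPKM in the inhibitor controls, 12.1 and 13.1 with inhibitor and 15.6 to 19.9 in the other 4, so its pattern differed from that of MAP1LC3B. The near-copy MAP1LC3B2 did not exceed 0.610 FPKM.

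GABARAP, the most abundant ATG8 gene here, had 65.7 and 64.8 FPKM in the inhibitor controls, 57.8 and 60.3 with inhibitor, 54.0 and 56.2 in the siRNA controls and 61.8 and 56.1 with siRNA. The inhibitor controls were again the highest, but the difference of -0.14 ± 0.06 was not called (adjusted p = 0.0943). GABARAPL2, also known as GATE-16, was at 28.5 and 25.7 in the inhibitor controls, 24.1 and 23.9 with inhibitor, 21.5 and 19.6 in the siRNA controls and 23.5 and 24.3 with siRNA. The siRNA controls were its lowest libraries, and the inhibitor effect of -0.16 ± 0.07 was not called (adjusted p = 0.111). GABARAPL1 was at -0.01 ± 0.13 (adjusted p = 0.972), with its highest values, 6.26 and 6.91, in the siRNA libraries. MAP1LC3A was between 0 and 0.219 FPKM.

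In the conjugation machinery more members were called higher than lower in the main fit, but not with the FPKM as deposited. ATG7 is the activating enzyme, ATG3 the conjugating enzyme, the ATG12, ATG5 and ATG16L1 proteins form the ligase, and ATG4B is the protease that trims LC3 and removes it from lipid. Of these 6 genes, 3 were called higher with inhibitor and 1, ATG4B, lower (-0.43 ± 0.11, adjusted p = 0.0147). That is a share of 66.7%, beside 36.5% of all genes, 17.7% higher and 18.7% lower. ATG5 rose by 0.37 ± 0.09 (adjusted p = 0.0104). With the FPKM as deposited the 3 higher calls were lost, and that of ATG4B was kept. The adjusted p in that setting was 0.063 for ATG5, 0.0959 for ATG12 and 0.151 for ATG16L1. The call of ATG4B was lost without inhibitor control replicate 2 or inhibitor replicate 2 (adjusted p = 0.064 and 0.112), and that of ATG5 without inhibitor control replicate 1 or inhibitor replicate 2 (adjusted p = 0.0592 and 0.0836). ATG16L1 had 15.7 and 15.5 FPKM in the inhibitor controls, 20.2 and 17.9 with inhibitor, 20.8 and 18.3 in the siRNA controls and 16.3 and 15.3 with siRNA, so the inhibitor and siRNA control libraries were high and the other 4 low. It rose by 0.27 ± 0.09 with inhibitor (adjusted p = 0.0355), a call lost without inhibitor control replicate 1, inhibitor control replicate 2 or inhibitor replicate 1 (adjusted p = 0.108, 0.125 and 0.22). ATG7 and ATG3, at 0.27 and 0.12, were not called (adjusted p = 0.103 and 0.134).

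ATG12 (chr5:115163893-115177555) carries a warning in the files. Cufflinks marked its estimate as failed in both runs of inhibitor control replicate 1, where it lists 48.7 FPKM with an interval of 0 to 3.74 and 56.0 with an interval of 0 to 4.31, intervals that do not contain the values. The other 14 runs were marked as good. AP3S1, which overlaps ATG12 by 378 bases, was marked in 2 runs as well. The scaled levels were 48.0 and 47.7 in the inhibitor controls, 59.2 and 59.0 with inhibitor, 61.5 and 58.2 in the siRNA controls and 61.0 and 54.9 with siRNA. The failed library thus lay beside the other inhibitor control, and both were below the remaining 6. The rise with inhibitor was 0.30 ± 0.06 (adjusted p = 0.00548). With the failed values set to missing, an alternative chosen after seeing the data, the comparison rested on inhibitor control replicate 2 alone, which is assumed to vary like the other groups, and gave 0.30 (adjusted p = 0.0197, over alternatives 0.00384 to 0.0959).

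Among the 8 tested genes that start and shape the autophagosome, 3 were called lower with inhibitor and none higher, a share of 37.5% beside the 36.5% of all genes. BECN1, the scaffold of the lipid kinase complex, had 26.4 and 26.4 FPKM in the inhibitor controls, 16.9 and 19.9 with inhibitor, 19.2 and 21.4 in the siRNA controls and 12.9 and 15.6 with siRNA. The inhibitor controls were highest, the siRNA control and inhibitor libraries overlapped, and the siRNA libraries were lowest. BECN1 fell by 0.50 ± 0.11 (adjusted p = 0.00635), a call lost without inhibitor replicate 1 (-0.38, adjusted p = 0.0524). ATG9A, the transmembrane protein of the seeding vesicles, was at 13.2 and 14.0 in the inhibitor controls, 8.47 and 8.72 with inhibitor, 9.68 and 10.8 in the siRNA controls and 9.53 and 7.47 with siRNA. Here the inhibitor libraries lay below both control groups, with a fall of 0.61 ± 0.11 against their own control (adjusted p = 0.00298) and a difference of -0.23 ± 0.11 from the siRNA controls that was not called (adjusted p = 0.431). ABCB6, which overlaps ATG9A by 9219 bases, was between 8.78 and 11.6 FPKM, and PSME3, which overlaps BECN1 by 8966 bases, fell as well (-0.32 ± 0.05, adjusted p = 0.00198).

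WIPI2, which recruits ATG16L1 to the forming membrane, fell by 0.27 ± 0.08 (adjusted p = 0.0304), a call lost without inhibitor control replicate 1, inhibitor replicate 1 or inhibitor replicate 2 (adjusted p = 0.152, 0.121 and 0.113). WIPI1, a related phosphoinositide-binding protein, had 2.56 and 3.30 FPKM in the inhibitor controls, 3.73 and 3.10 with inhibitor, 2.99 and 4.30 in the siRNA controls and 4.12 and 3.87 with siRNA. The inhibitor libraries overlapped their controls, the siRNA libraries lay within the range of theirs, and no comparison of WIPI1 was called (inhibitor against its control 0.17 ± 0.16, adjusted p = 0.445). The sequencing runs differed for this low gene: the first run alone gave -0.16 and the second alone 0.54 (adjusted p = 0.034, over alternatives 0.034 to 0.926). WIPI1 also overlaps ARSG by 1784 bases. ATG13, ATG14, ULK2 and UVRAG lay between -0.17 and 0.11 and were not called.

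Both transcription factors of lysosomal genes were called lower with inhibitor, where 36.5% of all genes were called, 18.7% lower. TFEB had 1.91 and 1.75 FPKM in the inhibitor controls, 1.03 and 0.926 with inhibitor, 0.937 and 1.56 in the siRNA controls and 1.05 and 0.733 with siRNA. It fell by 0.52 ± 0.17 (adjusted p = 0.0396), and the call was lost without any 1 of the 4 libraries compared. The first run alone gave -0.30 and the second alone -0.68, neither of them called (adjusted p = 0.366 and 0.0729). With 0.1 in place of 1 added to the FPKM, TFEB was at -0.84 and not called (adjusted p = 0.053). TFE3 was at 2.80 and 2.95 in the inhibitor controls, 2.00 and 1.82 with inhibitor, 1.56 and 1.65 in the siRNA controls and 1.46 and 1.83 with siRNA. It fell by 0.41 ± 0.13 (adjusted p = 0.0308), again a call lost without any 1 of those 4 libraries (adjusted p = 0.0834 to 0.157). For both genes the inhibitor controls were higher than all of the other 6 libraries.

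Of the 11 lysosomal hydrolases and activators, the role with the most members, 7 were called (63.6%, beside 36.5% of all genes), 6 lower and 1 higher, and the median was -0.34. CTSZ (chr20:57570240-57582302), the carboxypeptidase cathepsin Z, had 32.6 and 32.9 FPKM in the inhibitor controls, 16.6 and 16.9 with inhibitor, 17.0 and 17.5 in the siRNA controls and 13.9 and 16.8 with siRNA. No other library reached the inhibitor controls. CTSZ fell by 0.93 ± 0.09 against them (adjusted p = 0.000128), the smallest adjusted p of any member, and differed by -0.04 ± 0.09 from the siRNA controls (adjusted p = 0.883).

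PSAP had 96.4 and 88.7 FPKM in the inhibitor controls, 64.7 and 65.9 with inhibitor, 67.8 and 69.0 in the siRNA controls and 62.9 and 70.1 with siRNA. CTSD, the aspartic protease cathepsin D, was at 24.6 and 23.5, 17.4 and 17.7, 16.4 and 15.8, and 16.7 and 17.4 FPKM in the same order. In both genes the inhibitor controls were high and the other 3 groups close together. PSAP fell by 0.50 ± 0.07 (adjusted p = 0.000618) and CTSD by 0.43 ± 0.06 (adjusted p = 0.00119). Smaller decreases were called for the cysteine protease CTSB (-0.36), the serine carboxypeptidase CTSA (-0.28) and GRN, which encodes progranulin (-0.35). GLA, the alpha-galactosidase deficient in Fabry disease, was the only hydrolase called higher (0.45 ± 0.10, adjusted p = 0.0092). Calls were lost for CTSA without any 1 of the 4 libraries compared (adjusted p = 0.0582 to 0.166), for GRN without inhibitor control replicate 1 or inhibitor replicate 2 (adjusted p = 0.145 and 0.183) and for GLA without inhibitor control replicate 2 (adjusted p = 0.0611). GLB1, HEXA, NEU1 and TPP1 were not called, GLB1 at 0.27 ± 0.09 with an adjusted p of 0.0551.

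**Figure D2:**
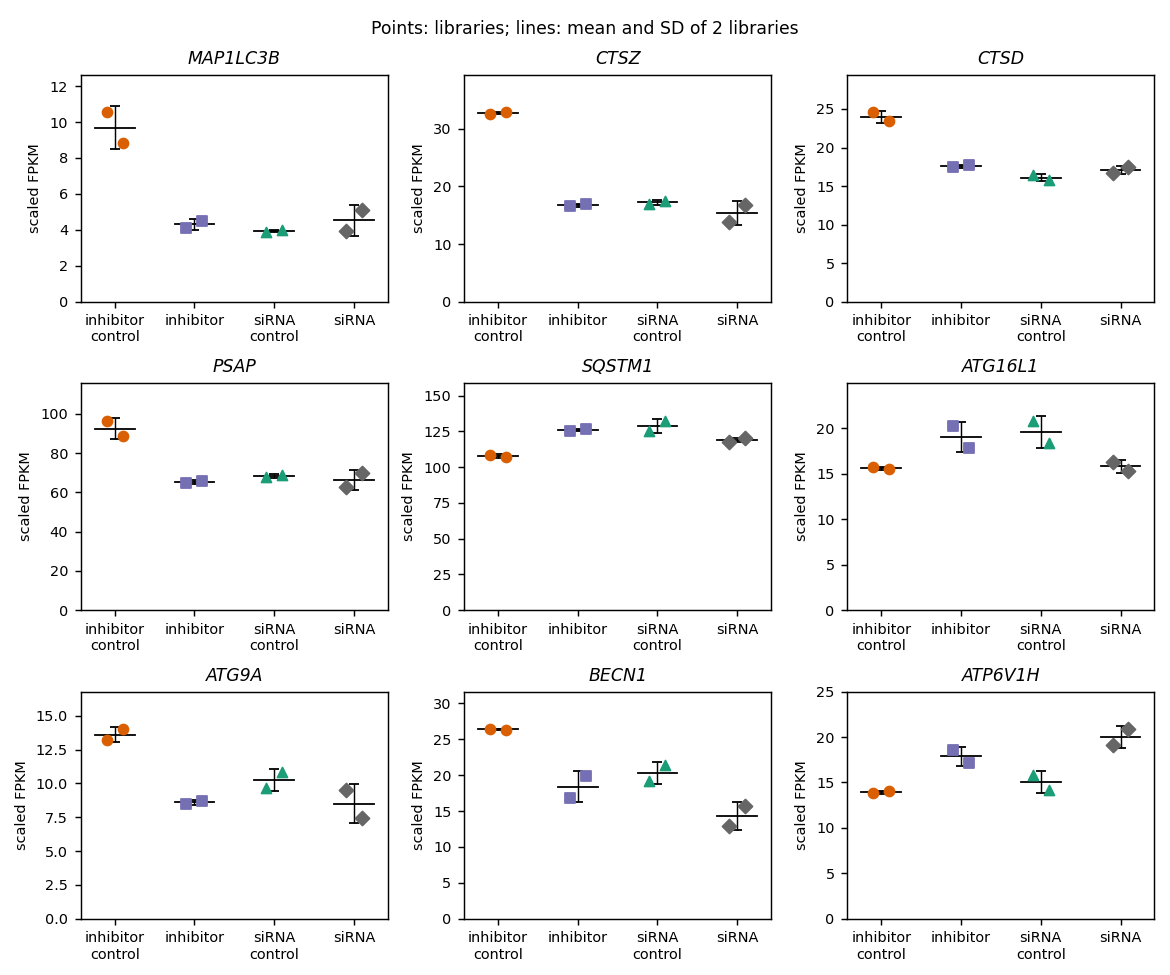
Scaled FPKM of MAP1LC3B, CTSZ, CTSD, PSAP, SQSTM1, ATG16L1, ATG9A, BECN1 and ATP6V1H, 1 panel per gene with its own axis from 0. Points are libraries, and lines are the mean and SD of the 2 libraries of a group. In MAP1LC3B, CTSZ, CTSD, PSAP, ATG9A and BECN1 the 2 inhibitor controls stand above the other 6 libraries. In ATP6V1H both treated groups stand above the siRNA controls.

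LAMP1, in the lysosomal membrane, had 45.8 and 48.6 FPKM in the inhibitor controls, 49.3 and 43.9 with inhibitor, 46.3 and 50.5 in the siRNA controls and 45.1 and 47.5 with siRNA. All 4 groups overlapped, and the inhibitor effect was -0.02 ± 0.07 (adjusted p = 0.866). LAMP2, its relative and a receptor for chaperone-mediated autophagy, fell by 0.44 ± 0.09 (adjusted p = 0.00589). MCOLN1, the calcium channel TRPML1, was at 3.73 and 4.19 in the inhibitor controls, 1.52 and 2.14 with inhibitor, 1.56 and 2.73 in the siRNA controls and 2.31 and 1.38 with siRNA. The inhibitor, siRNA control and siRNA libraries overlapped one another, below the inhibitor controls. MCOLN1 fell by 0.82 ± 0.22 (adjusted p = 0.0177), a call lost without inhibitor control replicate 2 or inhibitor replicate 1 (adjusted p = 0.0787 and 0.112). The cholesterol exporters NPC1 (-0.16) and NPC2 (0.11) were not called.

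The proton pump, or V-ATPase, acidifies the lysosome. ATP6V1H, a regulatory subunit of its cytosolic part, had 13.8 and 14.0 FPKM in the inhibitor controls, 18.6 and 17.1 with inhibitor, 15.9 and 14.2 in the siRNA controls and 19.1 and 20.8 with siRNA. Both treated groups lay above both control groups with no overlap. It rose by 0.34 ± 0.08 with inhibitor (adjusted p = 0.0112), a call lost without inhibitor control replicate 1 or inhibitor replicate 1 (adjusted p = 0.0581 and 0.0825). ATP6V1A, the catalytic subunit, was at 20.8 and 19.3, 18.4 and 19.5, 20.8 and 20.9, and 19.8 and 20.7 FPKM in the same order of groups, with overlap between inhibitor and its control and a difference of -0.08 ± 0.07 (adjusted p = 0.406). The accessory subunit ATP6AP1 fell by 0.28 ± 0.07 (adjusted p = 0.013), a call lost without inhibitor control replicate 1 or either inhibitor library (adjusted p = 0.0606 to 0.0726), and ATP6V0D1 was at -0.05 ± 0.11.

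To set the inhibitor libraries and their controls beside a further control group, both were compared with the siRNA controls. These comparisons share libraries with those above, so their values are not independent of them. The siRNA controls differed from the inhibitor controls in 24 of 43 members, 7 higher and 17 lower, where 38.3% of all genes were called, 19.2% higher and 19% lower. The median log2 difference was -0.20, and that of all genes was 0.01. With the FPKM as deposited 19 were called, 1 higher and 18 lower, where 28% of all genes were, 648 higher and 2950 lower, and the median of all genes moved from 0.01 to -0.11. The members' median was -0.32 in that setting, -0.12 with quantile normalization, -0.07 with the first run alone and -0.13 with the second alone. Fewer than 24 members were called when 1 inhibitor control, siRNA control replicate 1 or 1 inhibitor library was left out, which leaves 1 library in a group. The inhibitor libraries are not compared here but are part of the same fit. MAP1LC3B was at -1.11 ± 0.13 (adjusted p = 0.000322) in this comparison of the control groups, CTSZ at -0.89 ± 0.09 (adjusted p = 0.000141), NBR1 at -0.69 ± 0.08 (adjusted p = 0.000383), CTSD at -0.55 ± 0.06 (adjusted p = 0.000335), PSAP at -0.43 ± 0.07 (adjusted p = 0.00111) and SQSTM1 at 0.25 ± 0.05 (adjusted p = 0.00319). With the FPKM as deposited SQSTM1 was at 0.12 and its call was lost (adjusted p = 0.43, over alternatives 0.00259 to 0.43). ATP6V1H and GRN, at 0.10 ± 0.08 and 0.05 ± 0.10, were not called between the control groups (adjusted p = 0.346 and 0.72).

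Against the siRNA controls, 0 of 43 members were called in the inhibitor libraries by limma, with 4 at an unadjusted p under 0.05. Of all 12846 genes 0.0389% were called and 1599 had an unadjusted p under 0.05. The smallest adjusted p among members was 0.201, for GRN, whose inhibitor libraries were at 19.9 and 17.2 FPKM against 22.7 and 27.2 in the siRNA controls (-0.40 ± 0.10). The members' median was -0.03 and that of all genes -0.01, or 0.09 and 0.10 with the FPKM as deposited. What either control received is not given, so the inhibitor and any other difference in handling cannot be told apart in this comparison.

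Counting libraries, both inhibitor controls lay above all 6 others in 18 of 43 members (41.9%), where 25.8% of all genes did so, and below all 6 in 8 (18.6%, also 25.8% of all genes). The 18 were MAP1LC3B, GABARAP, GABARAPL2, ATG4B, ATG9A, BECN1, WIPI2, NBR1, TFEB, TFE3, LAMP2, CTSA, CTSB, CTSD, CTSZ, PSAP, ATP6AP1 and MCOLN1. The 8 were SQSTM1, ATG3, ATG5, ATG7, ATG12, GLA, GLB1 and ATP6V1H. The former include 5 of the 11 hydrolases and activators and both transcription factors, and the latter include 4 of the 6 genes of the conjugation machinery.

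**Figure D3:**
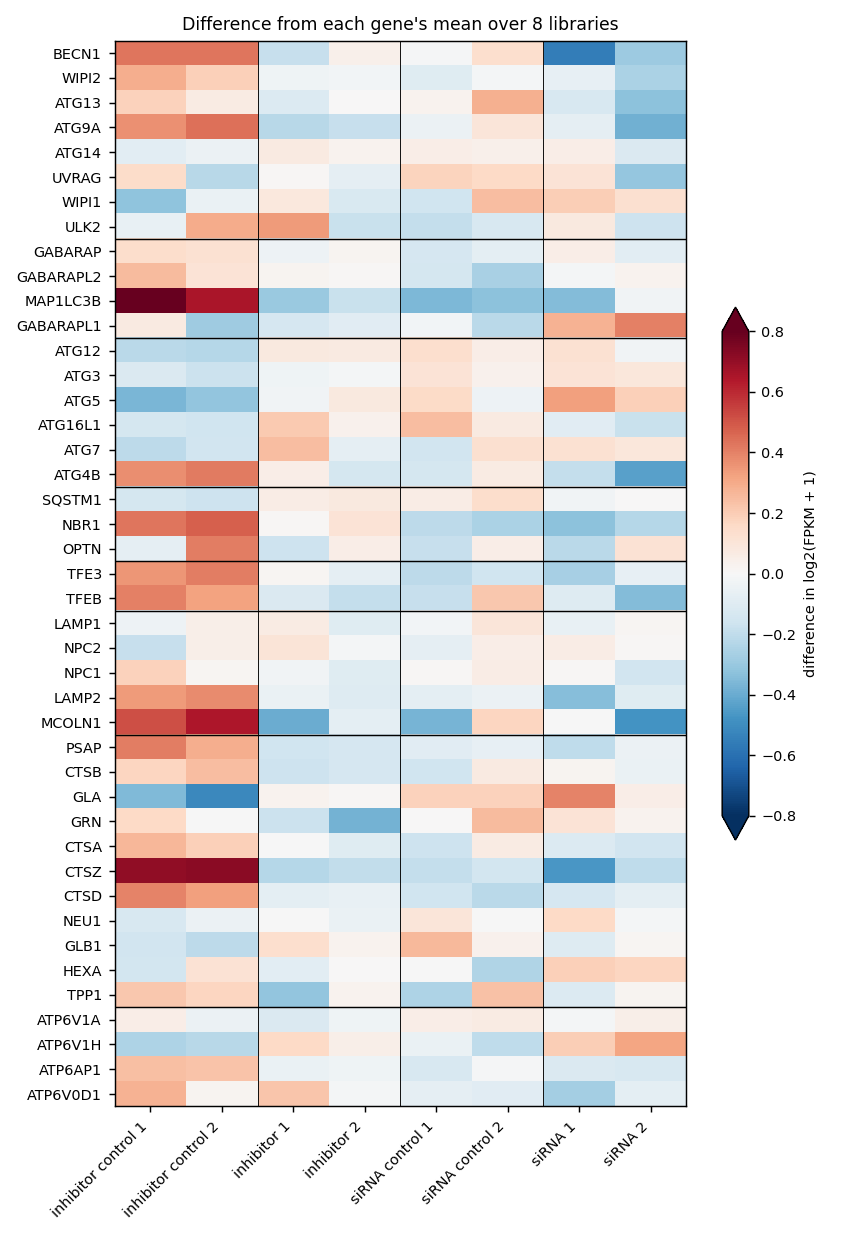
Heat map of each member's log2(FPKM + 1) in each library minus its mean over the 8 libraries, with members in rows by role and libraries in columns by group; the colour scale ends at 0.8 on either side. Both inhibitor control columns are higher than all other columns in 18 of 43 rows and lower in 8.

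The knockdown tests the same target by another route, and EHMT2 fell with it as given above. In siRNA against siRNA control 1 of 43 members was called, where 2.13% of all genes were. The median was -0.05, and that of all genes was -0.01. That member was ATP6V1H, which rose by 0.39 ± 0.08 (adjusted p = 0.0487) from 15.9 and 14.2 to 19.1 and 20.8 FPKM. Its call was lost in 14 alternatives, among them all that left out 1 library except the one without siRNA control replicate 1, with adjusted p from 0.0656 to 0.278 where 1 library was left out. The next was BECN1, which encodes the scaffold named above. At 12.9 and 15.6 against 19.2 and 21.4 FPKM its groups did not overlap, and its difference was -0.49 ± 0.11 (adjusted p = 0.0544). BECN1 was called lower with the FPKM as deposited (adjusted p = 0.0438), with robust empirical Bayes (adjusted p = 0.0494) and with the second run alone (-0.59, adjusted p = 0.0357), over alternatives 0.0357 to 0.331. GABARAPL1 was at 6.26 and 6.91 against 4.89 and 4.15 (0.46 ± 0.13, adjusted p = 0.102), and ATG13, a partner of the ULK kinases, at 10.2 and 8.77 against 11.5 and 13.9 (-0.38 ± 0.11, adjusted p = 0.0999). MAP1LC3B was at 0.16 ± 0.13 (adjusted p = 0.532), WIPI1 at 0.12 ± 0.16 (adjusted p = 0.726) and SQSTM1 at -0.11 ± 0.05 (adjusted p = 0.219). In all, 11 of 43 members had an unadjusted p under 0.05, beside 2670 of the 12846 genes.

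**Figure D4:**
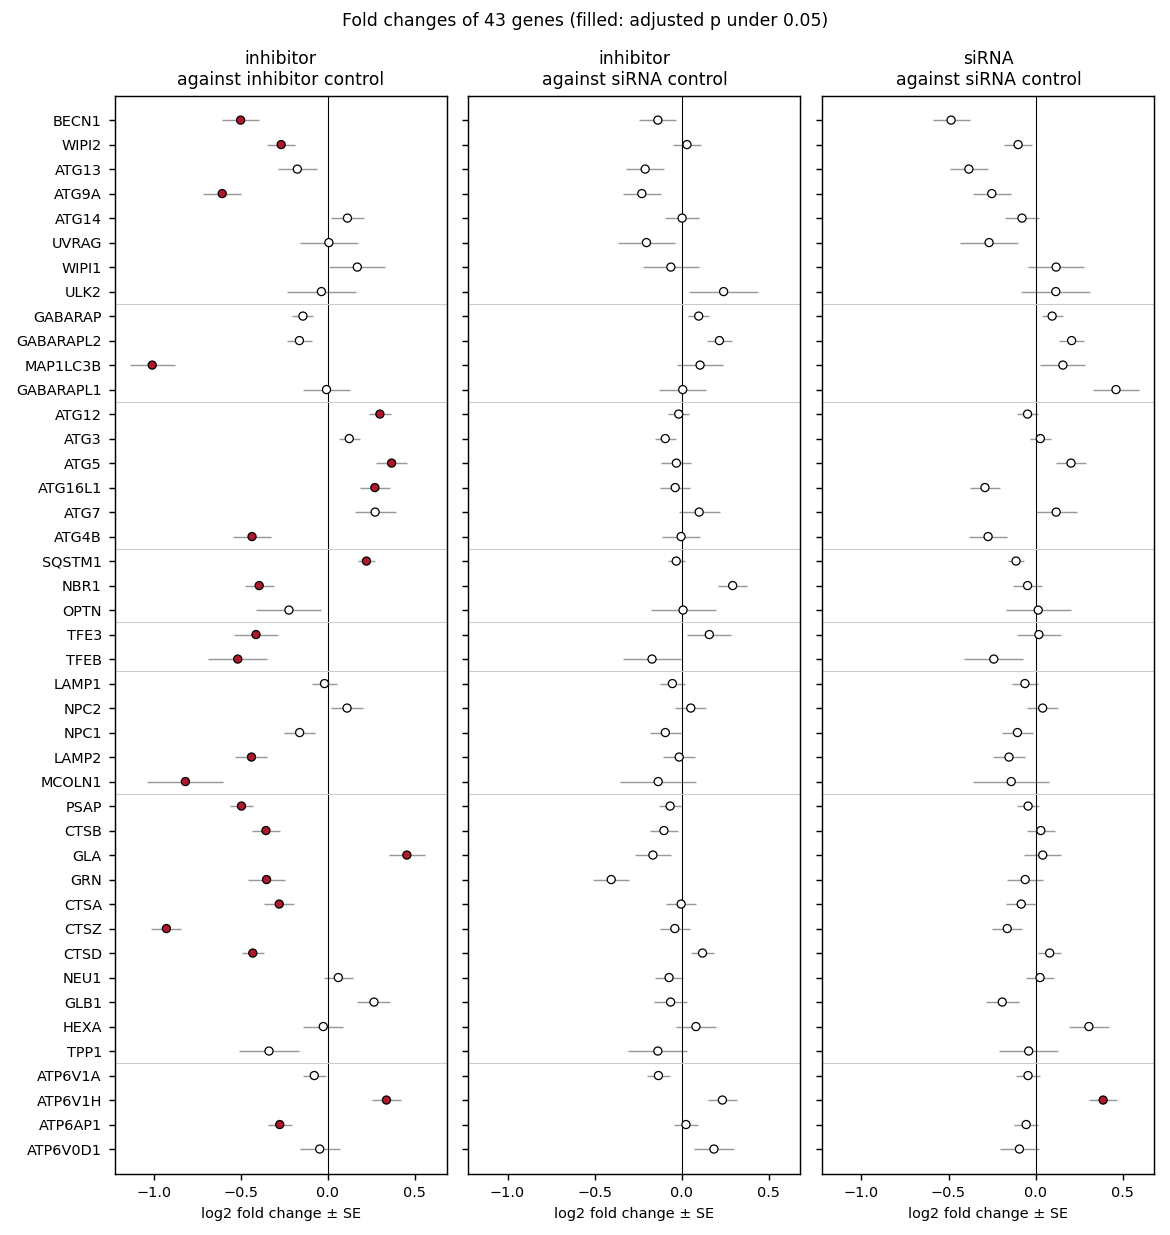
Log2 difference with its standard error for each tested member in 3 comparisons: inhibitor against its control, inhibitor against siRNA control and siRNA against its control. Filled points were called: 23 in the first comparison, with MAP1LC3B at -1.01 and CTSZ at -0.93, 0 in the second and 1 in the last (ATP6V1H at 0.39).

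The inhibitor effect minus the siRNA effect, each against its own control, was called in 8 members, 3 higher and 5 lower, where 11.8% of all genes were called, 5.16% higher and 6.67% lower. It was -1.16 ± 0.18 for MAP1LC3B (adjusted p = 0.00678), -0.76 ± 0.12 for CTSZ (adjusted p = 0.00719) and 0.56 ± 0.12 for ATG16L1 (adjusted p = 0.0212). For ATG16L1 the 2 effects had opposite signs, 0.27 and -0.29. CTSD, PSAP and GABARAPL2 were lower and SQSTM1 and ATG12 higher by the same measure. The inhibitor controls, which stood apart, enter all 8 values. With 1 library left out, the calls of MAP1LC3B, CTSZ and CTSD held, and those of the other 5 were lost without some libraries: SQSTM1 without inhibitor control replicate 2 or either inhibitor library, PSAP without inhibitor control replicate 1, either inhibitor library or siRNA replicate 2, and ATG12, ATG16L1 and GABARAPL2 without 5 or 6 of the 8. Fewer than 8 members were called when 1 inhibitor control, 1 inhibitor library, siRNA control replicate 1 or siRNA replicate 2 was left out, which leaves 1 library in a group. Set directly against each other, the inhibitor and siRNA libraries differed in 0 of 43 members by limma (8 at an unadjusted p under 0.05, beside 2426 of all 12846 genes, of which 1.68% were called). With the FPKM as deposited, which moved the median of all genes to 0.15, BECN1 and NBR1 were called higher with inhibitor. NBR1 had the smallest adjusted p, at 9.21 and 9.98 FPKM with inhibitor and 7.08 and 7.67 with siRNA (0.34 ± 0.08, adjusted p = 0.0807). MAP1LC3B differed by -0.05 ± 0.13, CTSZ by 0.12 ± 0.09 and PSAP by -0.02 ± 0.07.

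The other genes of the pathway were read from 6 further lists of 154 genes, of which 136 were tested. In inhibitor against its own control 30 were called higher and 23 lower, a share of 39% beside 36.5% of all genes, with a median of 0.03. Of 26 other autophagy machinery genes, 5 were called higher and 4 lower (34.6%). RAB7A, the GTPase that brings autophagosomes and late endosomes to the lysosome, had the smallest p. It had 45.3 and 44.3 FPKM in the inhibitor controls, 11.9 and 10.8 with inhibitor, 10.7 and 12.1 in the siRNA controls and 8.03 and 10.1 with siRNA. The log2 difference was -1.89 ± 0.11 against the inhibitor controls (adjusted p = 1.06e-05) and -0.01 ± 0.11 against the siRNA controls (adjusted p = 0.988). SNAP29 and VAMP8, which fuse autophagosome and lysosome, fell by 0.90 and 1.16.

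Of 13 other cargo receptors 2 were called higher and 1 lower, a share of 23.1% beside 36.5% of all genes. They were NCOA4, the ferritin receptor, at 0.45, BNIP3, a mitophagy receptor, at 0.39 and CALCOCO2, also known as NDP52, at -0.23. Among 27 genes of mTORC1, AMPK and lysosomal nutrient sensing, 6 were higher and 8 lower (51.9%). RRAGA, a Rag GTPase that recruits mTORC1 to the lysosome, had 21.6 and 20.8 FPKM in the inhibitor controls and 9.25 and 10.4 with inhibitor (-1.04 ± 0.08, adjusted p = 4.68e-05), with 9.73 and 10.1 in the siRNA controls. AKT1S1, an mTORC1 inhibitor, fell by 1.21 and LAMTOR5, a subunit of the Ragulator scaffold, by 0.54.

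The 35 other hydrolases and activators held 8 higher and 4 lower, a share of 34.3% beside 36.5% of all genes. Their median was 0.05, beside -0.34 for the 11 members of that role, a difference that was not tested. CTSC, cathepsin C, was at 0.39, PPT1, a thioesterase, at -0.50 and SGSH, a heparan sulfatase, at -0.68. Among 19 other membrane proteins and sorting receptors 3 were higher and 4 lower (36.8%). LAPTM4A was at -0.65 and SORT1, which sorts hydrolases to the lysosome, at -0.85. Of 16 other pump subunits 6 were higher and 2 lower (50%). ATP6V0C, which forms the proteolipid ring of the membrane part, had 16.9 and 16.2 FPKM in the inhibitor controls, 7.22 and 7.89 with inhibitor and 7.22 and 8.85 in the siRNA controls (-1.04 ± 0.10, adjusted p = 0.000154, against its own control). ATP6V1G1 was at 0.42 and ATP6V1C1 at 0.31. In siRNA against its control, 0 of the 136 genes were called by limma, with 33 at an unadjusted p under 0.05, beside 2670 of all 12846 genes. In inhibitor against siRNA control, 0 were called by limma, with 13 at an unadjusted p under 0.05, beside 1599 of all genes.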

How the data were processed

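Stranded libraries were made from total RNA of HCT116 cells, per the labels' protocols. Per the file headers, the authors deposited 1 FPKM per gene and run, made by Cufflinks. STAR 2.3.0e, SAMtools 0.1.19 and hg19 are named in the submitters' processing notes. Which Cufflinks version, annotation and strand setting were used is not stated in the sources used here, so overlapping genes are uncertain. FPKM divides by a library total, so abundant RNAs can shift all other genes.

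Entries sharing an identifier (131 of 63784) were summed, and the 2 runs of each library were averaged. MT-RNR2, marked as not reliable in all 16 runs, was left out. Scaling factors from median ratios ran from 0.878 to 1.09. The filter required a mean of at least 1 FPKM and a locus of 300 bases or more, which left 12846 genes. Differences in log2(FPKM + 1) were tested two-sided with limma 3.58.1 (R 4.3.3) as a moderated test with trend (all 4 groups in 1 fit, 4 residual and 5.04 prior degrees of freedom) in 6 comparisons, each with Benjamini-Hochberg adjustment over all genes tested. The script was tested on simulated data. Alternatives were another pseudocount, no filter, short genes kept, FPKM as deposited, quantile normalization, the compared groups alone, robust empirical Bayes, single runs, a replicate block and leaving out each library.

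The members and lists were chosen with earlier results of these data known. Values by library are given for members called against the siRNA control, between the treatments or in the difference of effects, for those called in inhibitor against its control with a log2 change of at least 0.5 in size, for MAP1LC3B, SQSTM1, WIPI1, TFEB and ATG12, and for the most abundant member of each role. GABARAPL1, ATG13, NBR1 and GRN were added after their values were seen. Of the other pathway lists, up to 3 called genes with the smallest p are named. One gene of these is not reported here. Promoter sequences are from RefSeq, GRCh38.p14.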

Additional observations from a re-analysis of the deposited data

Results flagged for a closer look

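The difference between the inhibitor effect and the siRNA effect, each against its own control, passed the limma threshold in 8 members. It was -1.16 for MAP1LC3B (effects -1.01 and 0.16), -0.76 for CTSZ (-0.93 and -0.16), -0.51 for CTSD (-0.43 and 0.08, adjusted p = 0.0109), -0.45 for PSAP (-0.50 and -0.04, adjusted p = 0.0171) and -0.37 for GABARAPL2 (-0.16 and 0.21, adjusted p = 0.0489). It was 0.56 for ATG16L1 (0.27 and -0.29), 0.35 for ATG12 (0.30 and -0.05, adjusted p = 0.0356) and 0.33 for SQSTM1 (0.22 and -0.11, adjusted p = 0.0161). All 8 use the inhibitor controls, whose part in the differences was not tested. For ATG12 the value rests on a library marked as failed.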

How the results depend on the processing

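No member's call changed direction under any alternative. In inhibitor against its control, 23 members were called, and 11 with no filter on low values, 15 with the FPKM as deposited, 15 with the second run alone and 13 to 24 when 1 library was left out. Of all genes, 36.5% were called in the main fit and 9.25% with no filter. The share was 24.2% with the FPKM as deposited and 25.7% with the second run alone. ATG9A, CTSD, CTSZ, MAP1LC3B and PSAP, 5 of the 23, were called in every alternative run. The single call of siRNA against its control was lost (0 calls) with no filter, short genes kept, only the groups compared and the first run alone, robust empirical Bayes gave 2, and the FPKM as deposited and the second run alone each lost ATP6V1H and called BECN1, lower, in its place. Leaving out 1 library gave 0 to 1. The 24 calls between the control groups became 15 with no filter and 13 to 24 with 1 library left out, and 9 were kept throughout. For inhibitor against siRNA the 0 calls became 2 with the FPKM as deposited and stayed at 0 with 1 library left out, and inhibitor against siRNA control gave 0 calls in every alternative. The 8 calls of the difference between effects became 1 with no filter, 2 (both lower) with the FPKM as deposited, 5 with the first run, 5 with the second run and 3 to 9 with 1 library left out. None of the 8 was kept throughout. For the other comparisons, and with 1 library left out, these counts stand without the share of all genes in the same setting. A change particular to the members cannot be read from the counts alone. With ATG12's failed values set to missing, an alternative chosen after seeing the data, its difference between effects was 0.35 (adjusted p = 0.065, over the other alternatives 0.0227 to 0.286). Adding the replicate number as a block left 0 calls in siRNA against its control and 22 in inhibitor against its control. The replicate numbers gave no sign of pairing, with same-numbered libraries deviating together at r between -0.10 and 0.05. These values cannot tell how the libraries were handled. The causes of these changes were not tested. With 2 libraries a group, and no read counts in the files, standard errors of the inhibitor effect were largest for MCOLN1 (0.22), ULK2 (0.20) and OPTN (0.19).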
